A study of Mus musculus with 6 samples.

Results

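Genomic imprinting leaves 1 parental copy of a gene active and silences the other, and many of the genes controlled in this way set the rate of fetal and early postnatal growth. The 10 genes described here, H19, Igf2, Dlk1, Mest, Plagl1, Peg3, Cdkn1c, Grb10, Ndn and Igf2r, were taken by symbol as imprinted genes known to fall as postnatal growth slows. All 10 were found among the 22026 gene symbols in the files, and all 10 passed the filter on low values that left 12481 genes for testing. RNA came from choroid endothelial cells (ECs) of 129/B6 mice at P5, when the retina is still maturing, and at P30, at visual maturity. In both age groups a VE-Cadherin antibody, given to the living animal, marked the ECs, which were sorted by flow cytometry from RPE/choroid tissue freed of neural retina. Each age had 3 independent isolations, called replicates here, of 7 pooled animals each, and no treatment or genetic change is given for either group. The P30 animals were male and female. Values are FPKM, fragments assigned to a transcript scaled to its length and to the library, so that levels of different genes can be set side by side, and they do not separate the maternal from the paternal copy.

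Igf2 encodes a secreted growth factor that signals through the type 1 IGF receptor and, in part, the insulin receptor. Igf2r encodes the receptor that carries IGF2 to lysosomes and so removes it. H19 is a noncoding RNA that shares an imprinting control region with Igf2, and Plagl1 encodes a zinc finger transcription factor known to bind at this locus. Cdkn1c encodes p57, a cyclin-dependent kinase inhibitor, and Grb10 an adaptor that dampens insulin and IGF1 receptor signalling. Dlk1 encodes a Notch-like membrane protein, Mest a protein of the hydrolase fold, Peg3 a zinc finger protein and Ndn a MAGE family protein. Igf2, Dlk1, Mest, Plagl1, Peg3 and Ndn are expressed from the paternal copy, and H19, Cdkn1c and Igf2r, and Grb10 outside neurons, from the maternal copy.

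H19, Igf2 and Mest, the members whose FPKM fell furthest, are also microRNA hosts, and the microRNAs are shown because they are made from the same transcription units. Sequences are the mature forms in RefSeq (GRCm38.p6), 5′ to 3′, with the seed (bases 2 to 8) in capitals.
mmu-miR-675-5p, in H19 at chr7:142577112-142577133, minus strand: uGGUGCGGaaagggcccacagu
mmu-miR-675-3p, in H19 at chr7:142577078-142577099, minus strand: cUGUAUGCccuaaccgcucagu
mmu-miR-483-5p, in Igf2 at chr7:142654968-142654989, minus strand: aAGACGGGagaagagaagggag
mmu-miR-483-3p, in Igf2 at chr7:142654932-142654952, minus strand: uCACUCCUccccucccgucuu
mmu-miR-335-5p, in Mest at chr6:30741314-30741336, plus strand: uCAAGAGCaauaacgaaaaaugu
mmu-miR-335-3p, in Mest at chr6:30741354-30741375, plus strand: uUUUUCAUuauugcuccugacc
The 6 mature microRNAs have 6 different seeds. The files hold rows for the precursors, in which Mir335 and Mir483 were listed at 0 in every library and Mir675 at 23.92 in P30 replicate 2 only. The libraries were made for longer RNA, so the microRNAs themselves were not measured.

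Start-site sequence was matched by symbol for 8 members, in 14 windows. H19 and Cdkn1c were not matched. A window for Mest, for Igf2 and for Dlk1 is shown because these members moved most, and one for Peg3 because it holds the PLAGL1 motif. Each window holds the 250 bases before a start in RefSeq (GRCm38.p6), 5′ to 3′ on the strand of the gene, with matches to GGGCGG (the GC box bound by the Sp1 family, either strand) or GGGGCCCC (a PLAGL1 motif, the same on both strands) in capitals.
Mest, chr6:30737800-30738049, plus strand: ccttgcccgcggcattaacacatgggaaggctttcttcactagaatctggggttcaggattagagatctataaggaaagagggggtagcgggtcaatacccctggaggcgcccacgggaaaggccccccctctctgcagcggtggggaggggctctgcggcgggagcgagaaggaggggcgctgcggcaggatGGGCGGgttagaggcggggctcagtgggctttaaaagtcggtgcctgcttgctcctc
Igf2, chr7:142657497-142657746, minus strand: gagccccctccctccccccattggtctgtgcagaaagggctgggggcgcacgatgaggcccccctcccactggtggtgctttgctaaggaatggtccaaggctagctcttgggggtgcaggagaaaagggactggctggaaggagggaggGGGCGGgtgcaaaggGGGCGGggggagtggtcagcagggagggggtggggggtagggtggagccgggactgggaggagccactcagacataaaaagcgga
Dlk1, chr12:109452573-109452822, plus strand: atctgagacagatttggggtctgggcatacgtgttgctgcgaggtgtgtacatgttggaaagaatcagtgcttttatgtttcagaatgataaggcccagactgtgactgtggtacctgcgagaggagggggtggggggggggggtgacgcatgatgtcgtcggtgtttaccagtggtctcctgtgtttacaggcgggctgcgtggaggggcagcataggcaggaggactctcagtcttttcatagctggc
Peg3, chr7:6730420-6730669, minus strand: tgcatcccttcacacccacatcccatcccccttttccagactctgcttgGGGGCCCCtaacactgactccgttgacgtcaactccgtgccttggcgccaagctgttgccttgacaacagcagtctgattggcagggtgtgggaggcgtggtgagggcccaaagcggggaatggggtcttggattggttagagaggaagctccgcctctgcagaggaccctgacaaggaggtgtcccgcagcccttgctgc
GGGCGG or its complement was found in 8 of the 14 windows and in 32.7% of all 32851 windows. The 8 were 3 of 3 windows of Mest, 2 of 4 of Igf2, 1 of 2 of Grb10 and the single windows of Igf2r and Plagl1, and a pair of the Mest windows share 247 bases, so that 1 match is counted in both. GGGGCCCC was found in 1 of the 14 and in 0.889% of all windows. CpG dinucleotides ranged from 1 in an Igf2 window to 40 in a Grb10 window, against a median of 6 over all windows. A match is a description of these letters only.

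The sorted cells expressed all 9 endothelial markers checked, among them Cdh5, Pecam1, Kdr and Plvap, with a summed FPKM of 19697 to 20509 at P5 and 27659.9 to 33798 at P30. Lists of other cell types were present at lower sums, and some differed between ages. The summed FPKM of 8 fibroblast genes was 742 to 1212 at P5 and 1821 to 4559 at P30, that of 7 pericyte genes 497 to 1765 and 1872 to 6290.4, and that of 7 RPE genes 57.9 to 131 and 422 to 3524. Smooth muscle (4 genes), photoreceptor (5) and Schwann cell (5) sums were also higher in every P30 library than in every P5 library, whereas haematopoietic (5), melanocyte (5) and erythroid (5) sums overlapped. P30 replicate 2 was the highest for fibroblast, pericyte and smooth muscle genes, and P30 replicate 1 for RPE and photoreceptor genes. Of the marker genes tested, those called higher at P30 were Plvap (1 of 9 endothelial genes), Dcn (1 of 8 fibroblast), Myh11 (1 of 3 smooth muscle), Rpe65, Rgr, Ttr and Lrat (4 of 6 RPE), Gnat1 and Rcvrn (2 of 4 photoreceptor) and S100b (1 of 5 Schwann cell). Ptprc and Emr1 (2 of 5 haematopoietic) were called higher at P5, and no pericyte, melanocyte or erythroid gene was called. Their part in the results for the members was not tested. Of the defining markers, Dpt, of fibroblasts, and Rcvrn, of photoreceptors, were listed at 0 in every P5 library. In these bulk samples, fewer cells of a type and less RNA per cell cannot be told apart.

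**Figure D1:**
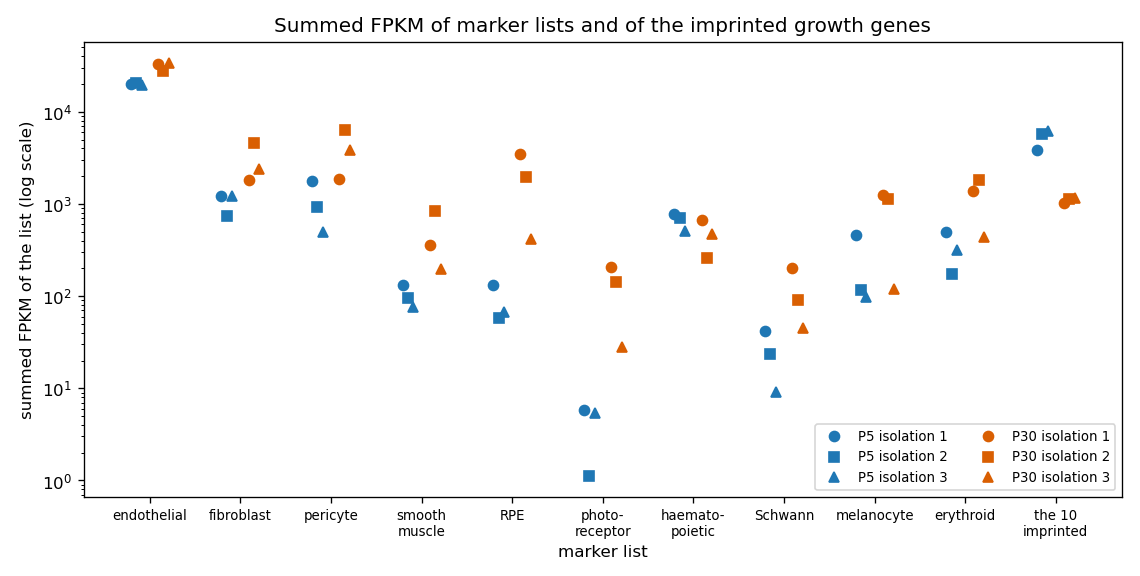
Summed FPKM (log scale) of each marker list and of the 10 imprinted growth genes in every library, with P5 in blue and P30 in orange and a symbol for each replicate. The imprinted genes summed to 3813 to 6139 at P5 and 1035 to 1160.2 at P30, while the fibroblast, pericyte, smooth muscle, RPE, photoreceptor and Schwann cell sums were higher at P30.

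Between P5 and P30, 6 of the 10 imprinted growth genes fell, H19, Mest, Igf2, Plagl1, Grb10 and Igf2r, and Dlk1 rose. Peg3, Cdkn1c and Ndn did not pass the test. Calls needed an adjusted p under 0.01 (limma, Benjamini-Hochberg over all 12481 genes tested) as well as means of FPKM + 1 that were 2-fold apart or more, and 5.82% of all genes tested were called higher at P5 and 5.89% higher at P30. In 7 members, the 6 that were called and Peg3, every P30 library lay below every P5 library, as in 33.0% of all genes tested. In Dlk1 every P30 library lay above every P5 library, as in 22.0% of all genes tested. The median log2 fold change, P30 minus P5, was -1.40 over the 10 members and -0.10 over all genes tested. By parental copy, 3 of the 4 maternally expressed members fell, and of the 6 paternally expressed members 3 fell and 1 rose.

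Added up, the 10 members had 3813, 5681 and 6139 FPKM in the P5 replicates, in order, and 1035, 1140.4 and 1160.2 at P30. These sums were 0.259% to 0.428% of all FPKM in a P5 library and 0.0632% to 0.0738% in a P30 library. H19, Igf2 and Mest together made up 69.6% to 78.5% of the members' sum at P5 and 19.1% to 27.9% at P30, so that a few genes held most of the signal at P5.

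The order of the levels differed between ages. At P5 the order by mean FPKM was Mest (1901), H19 (1112), Igf2 (959.7), Grb10 (601), Igf2r (180), Cdkn1c (156), Plagl1 (151), Ndn (90.8), Peg3 (44.9) and Dlk1 (14.0). Neighbours from Mest to Grb10 and from Igf2r to Plagl1 overlapped in their libraries. At P30 the order was Dlk1 (240.1), Grb10 (212), Cdkn1c (145), Mest (132), Igf2 (115), Ndn (97.0), Igf2r (73.5), Plagl1 (47.1), H19 (27.7) and Peg3 (23.3). Here the libraries of Dlk1 and Grb10, of each neighbouring pair from Cdkn1c to Igf2r, and of H19 and Peg3 overlapped.

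**Figure D2:**
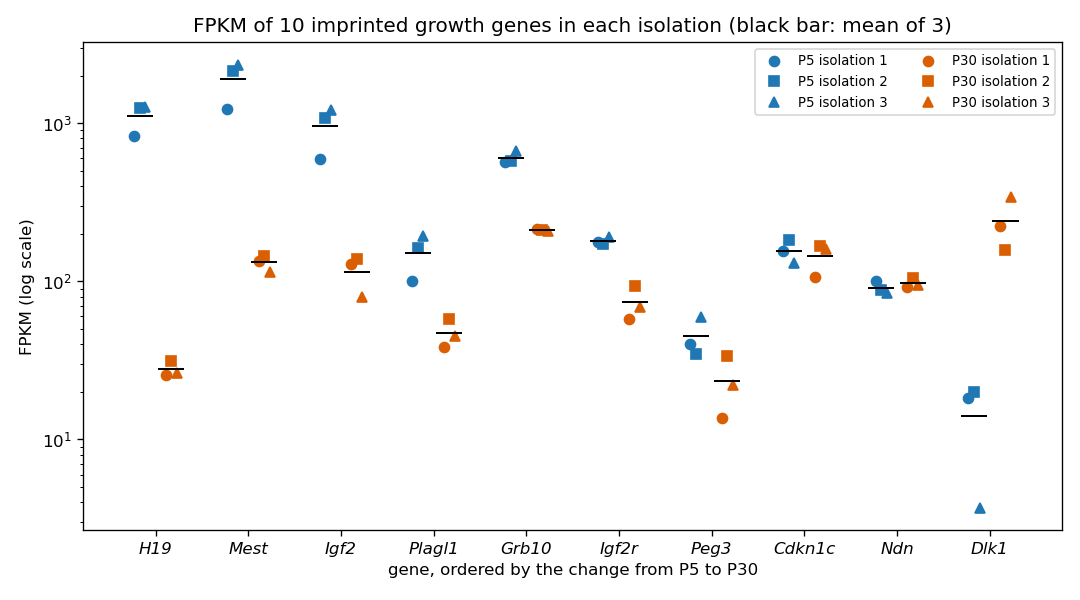
FPKM (log scale) of each of the 10 genes in the 3 P5 libraries (blue) and the 3 P30 libraries (orange), with a symbol for each replicate and a black bar at the mean, ordered by the change between ages. H19 went from a mean of 1112 to 27.7 and Dlk1 from 14.0 to 240.1, while the libraries of Cdkn1c and of Ndn overlapped.

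H19 (ENSMUSG00000000031.9, chr7:149761434-149764048 in mm9, as for all gene positions from here on, minus strand, annotated as a processed transcript) had the largest fall among the members. In the order of the replicates, which holds for all values below, its FPKM was 832, 1241 and 1262 at P5 and 25.4, 31.5 and 26.2 at P30. The libraries of the ages were far apart, and those of P30 lay close together. The mean fell from 1112 ± 243 (SD, n = 3) to 27.7 ± 3.30, 40.2 times lower (log2 change -5.26 with SE 0.18, limma adjusted p = 2.6e-05). Among all genes tested this was the 15th largest fall. By mean FPKM, H19 went from rank 129 of 22026 genes at P5 to rank 8364 at P30.

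Igf2 (ENSMUSG00000048583.9, chr7:149836673-149852721, minus strand, protein coding) lies next to H19 on the chromosome. Its FPKM was 594, 1077 and 1208 at P5 and 128, 138 and 79.7 at P30. The lowest P5 library, replicate 1, still had several times the highest P30 value, and the P5 libraries differed among themselves by 2.03 times. The mean went from 959.7 ± 324 to 115 ± 31.2 (log2 change -3.02 with SE 0.31, limma adjusted p = 0.000524), 8.33 times lower. At P30 Igf2 still ranked 3185 of 22026.

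Set against each other, H19 and Igf2 differed in the size of their fall. The ratio of H19 to Igf2 FPKM was 1.40, 1.15 and 1.05 at P5 and 0.198, 0.229 and 0.329 at P30. H19 was thus the higher of the pair in every P5 library and the lower in every P30 library. The log2 ratio of FPKM + 1 went from 0.25 ± 0.22 (SD, n = 3) to -1.99 ± 0.37. The difference of -2.24 was larger in size than either SD. An exact permutation test, two-sided, gave p = 0.1, which is the lowest that 3 libraries against 3 allow. After adjustment over the 2 ratios tested, the p of this test was 0.1. Another gene of this domain, Ins2, which encodes insulin 2, was listed at 0 in the P5 libraries and had 12.7, 10.8 and 5.94 FPKM at P30 (limma adjusted p = 0.00253). With all P5 libraries at 0 the size of this rise is set by the pseudocount, with a log2 change of 1.54 at a pseudocount of 5 and 6.56 at 0.1, and is not a measured fold. The call for Ins2 was lost with a replicate block and without P5 replicate 2, P5 replicate 3 or P30 replicate 2, at an adjusted p of at most 0.0128 over the alternatives. The part of other cell types in the Ins2 values was not tested.

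Igf2r (ENSMUSG00000023830.7, chr17:12875272-12962530, minus strand, protein coding), the clearance receptor for IGF2, fell less than its ligand. Its FPKM was 176, 173 and 190 at P5 and 57.7, 93.8 and 69.0 at P30. The P5 libraries were nearly equal and the P30 libraries were all lower. The mean went from 180 ± 8.83 to 73.5 ± 18.4 (log2 change -1.31 with SE 0.18, limma adjusted p = 0.00166), 2.44 times lower. Without P5 replicate 2 or 3 the adjusted p was 0.0101 and 0.0124, just past the limit, at log2 fold changes of -1.33 and -1.27. The ratio of Igf2 to Igf2r FPKM was 3.37, 6.23 and 6.37 at P5 and 2.22, 1.47 and 1.15 at P30, and every P30 library lay below every P5 library. On the log2 scale of FPKM + 1 the ratio went from 2.35 ± 0.52 to 0.63 ± 0.47 (exact permutation test, two-sided, p = 0.1, the lowest possible, and 0.1 after adjustment). Airn, the noncoding RNA transcribed from the opposite strand, overlaps Igf2r over 28354 bases. Airn had 55.6, 56.3 and 31.1 FPKM at P5 and 23.4, 45.2 and 29.8 at P30, with overlapping ages (log2 change -0.53, limma adjusted p = 0.208). The library kit is not stated to mark strand, so reads from overlapping genes on opposite strands cannot be told apart, which holds also for Igf2 and Igf2as over 7124 bases and for Mest and Copg2 over 904 bases.

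Mest (ENSMUSG00000051855.8, chr6:30673547-30698457, plus strand, protein coding) was the most abundant member at P5, where it ranked 46 of 22026 genes. It had 1228, 2129 and 2346 FPKM at P5 and 135, 145 and 115 at P30. As for Igf2, P5 replicate 1 was the lowest of its age, and no library of one age came near the other. The mean fell from 1901 ± 593 to 132 ± 15.3, 14.4 times lower (log2 change -3.79 with SE 0.24, limma adjusted p = 0.000127). Copg2, the neighbour whose end overlaps that of Mest and which encodes a coatomer subunit, had 84.6, 101 and 91.8 FPKM at P5 and 64.0, 76.0 and 74.0 at P30 (log2 change -0.37 with SE 0.12, limma adjusted p = 0.0499), short of both limits.

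The transcription factor Plagl1 (ENSMUSG00000019817.11, chr10:12810497-12851500, plus strand) had 101, 161 and 192 FPKM at P5 and 38.6, 57.5 and 45.2 at P30. The ages did not overlap, with P5 replicate 1 again the lowest of its age. The mean went from 151 ± 46.5 to 47.1 ± 9.58, 3.22 times lower (log2 change -1.63 with SE 0.25, limma adjusted p = 0.00294). The call was lost without P5 replicate 2 (log2 fold change -1.56, adjusted p = 0.0174) or without P5 replicate 3 (-1.44, adjusted p = 0.0150). Peg3 (ENSMUSG00000002265.8, chr7:6656603-6683132, minus strand), the other zinc finger gene, had 40.1, 34.9 and 59.7 FPKM at P5 and 13.7, 33.9 and 22.2 at P30. P30 replicate 2 came within 1 FPKM of P5 replicate 2. The log2 fold change of Peg3 was -0.97 (95% confidence interval -1.77 to -0.18, limma adjusted p = 0.0571), which did not pass the test.

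Of the genes that restrain growth, Grb10 (ENSMUSG00000020176.10, chr11:11830511-11938686, minus strand) gave the most even values at P30. It had 567, 575 and 662 FPKM at P5 and 215, 212 and 208 at P30. The P30 libraries were within 1.04 times of each other. The mean fell from 601 ± 52.5 to 212 ± 3.92, 2.84 times lower (log2 change -1.50 with SE 0.10, limma adjusted p = 0.000131). Cdkn1c (ENSMUSG00000037664.6, chr7:150644255-150646955, minus strand) had 156, 182 and 131 FPKM at P5 and 107, 167 and 159 at P30. Its ages overlapped, and the log2 fold change was -0.13 (95% confidence interval -0.59 to 0.34, limma adjusted p = 0.641), an interval without a 2-fold change. Ndn (ENSMUSG00000033585.4, chr7:69493163-69494814, plus strand) had 100.4, 88.0 and 84.0 FPKM at P5 and 91.7, 105 and 94.6 at P30. Its ages overlapped too, with a log2 fold change of 0.10 (95% confidence interval -0.18 to 0.37, limma adjusted p = 0.532).

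**Figure D3:**
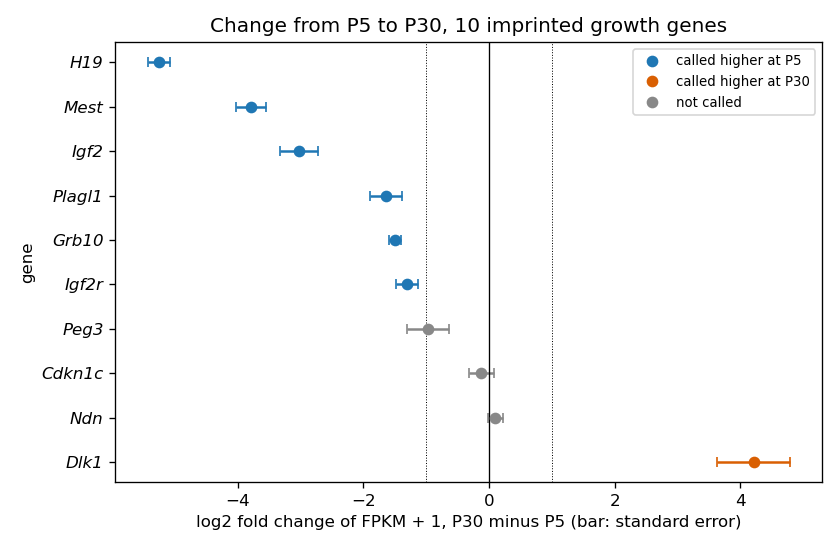
Log2 fold change of FPKM + 1, P30 minus P5, for each of the 10 genes, with bars for the standard error from limma, dotted lines at a 2-fold change, blue for called higher at P5, orange for called higher at P30 and grey for not called. The changes run from -5.26 for H19 to 4.21 for Dlk1, with Ndn (0.10) and Cdkn1c (-0.13) next to 0.

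Dlk1 (ENSMUSG00000040856.11, chr12:110691033-110701546, plus strand, protein coding) went against the direction for which the list was drawn up. Its FPKM was 18.3, 19.9 and 3.69 at P5 and 222, 157 and 341 at P30. The lowest P30 library had several times the highest P5 value, and of the P5 libraries replicate 3 was well below the others. The mean rose from 14.0 ± 8.94 to 240.1 ± 93.2, 17.2 times higher (log2 change 4.21 with SE 0.58, limma adjusted p = 0.00177), the 41st largest rise among all genes tested. Without P5 replicate 3 the log2 change was 3.51 and the means were 12.6 times apart, and over all alternatives the log2 change lay between 3.51 and 4.59. By mean FPKM, Dlk1 went from rank 10188 of 22026 genes to rank 1323. At P30 Dlk1 was the highest in replicate 3, the library with the lowest smooth muscle, RPE, photoreceptor, Schwann cell, melanocyte and erythroid sums. The fibroblast and pericyte sums were lowest in replicate 1 and the haematopoietic sum in replicate 2. Dlk1 was the lowest in replicate 2, which had the highest fibroblast (4559), pericyte (6290.4), smooth muscle (848) and erythroid (1829) sums. At P5 Dlk1 was lowest in replicate 3, which had the lowest pericyte (497), smooth muscle (76.2), Schwann cell (9.04), melanocyte (97.0) and haematopoietic (509) sums. The other sums, of fibroblast, RPE, photoreceptor and erythroid genes, were lowest in P5 replicate 2. The part of these cells in the Dlk1 values was not tested.

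Dlk1 shares its imprinted domain on chromosome 12 with the noncoding RNAs Meg3, Rian and Mirg, made from the maternal copy, and with Rtl1 and Dio3, made from the paternal copy. All 4 of these that were tested were higher in every P30 library than in every P5 library, and 2 of them, Meg3 and Rian, passed the test. Over all genes tested, 22.0% lay higher in every P30 library and 5.89% were called higher at P30. Meg3 (chr12:110779211-110809936) had 20.5, 14.6 and 15.3 FPKM at P5 and 69.1, 62.4 and 44.0 at P30 (log2 change 1.73 with SE 0.22, limma adjusted p = 0.00134). Rian (chr12:110842155-110899919) had 15.03, 12.6 and 11.6 FPKM at P5 and 40.4, 39.6 and 25.1 at P30 (log2 change 1.33 with SE 0.23, limma adjusted p = 0.00475). The call for Rian was lost in 5 of the 6 fits that left out 1 library, all but that without P30 replicate 3, at an adjusted p of at most 0.0256, while Meg3 kept its call in all 6. Rtl1, a gene of retrotransposon origin, had 5.13, 9.67 and 1.02 FPKM at P5 and 18.1, 12.5 and 14.6 at P30 (limma adjusted p = 0.0595). Mirg had 1.75, 0 and 2.62 FPKM at P5 and 4.29, 8.50 and 7.38 at P30 (limma adjusted p = 0.0499). Neither Rtl1 nor Mirg passed the test. Within P30, Meg3 and Rian were lowest in replicate 3, where Dlk1 was highest. Their P30 order, from replicate 1 down to replicate 3, was also that of the RPE, photoreceptor, Schwann cell and melanocyte sums. The endothelial, fibroblast, pericyte, smooth muscle, haematopoietic and erythroid sums had other orders. The part of these cells in the Meg3 and Rian values was not tested. Dio3, a thyroid hormone deiodinase gene, was listed at no more than 1.03 FPKM in any library and was not tested.

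Within an age, the replicate with the highest or lowest value differed between members. P5 replicate 3 was the highest P5 library for 7 of the 10 members, against 32.9% of all genes tested, and P5 replicate 1 the lowest for 5, against 31.9%. The deviations of P5 replicate 1 from the P5 mean of log2(FPKM + 1) were -0.39 for H19, -0.58 for Mest, -0.63 for Igf2 and -0.53 for Plagl1. They were smaller for Peg3 (-0.12), Grb10 (-0.08) and Igf2r (-0.03), and above the mean for Dlk1 (0.64), Ndn (0.15) and Cdkn1c (0.01). The SD of log2(FPKM + 1) at P5 stood at percentile 95.1 of all genes tested for Igf2, 94.0 for Mest, 93.3 for Plagl1, 87.1 for H19 and 99.4 for Dlk1, and at percentile 21.5 for Igf2r. P5 replicate 1 also had the highest sum of its age in every list of another cell type. The sums there were 1765 for pericyte, 134 for smooth muscle, 131 for RPE and 41.7 for Schwann cell genes. They were 457 for melanocyte, 775 for haematopoietic and 491 for erythroid genes. Fibroblast (1212 against 1208) and photoreceptor (5.87 against 5.36) sums were close to those of P5 replicate 3. The part of these cells in the deviations was not tested. At P30, replicate 2 was the highest library for 8 of the 10 members, against 46.1% of all genes tested, Dlk1 and Grb10 being the others.

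**Figure D4:**
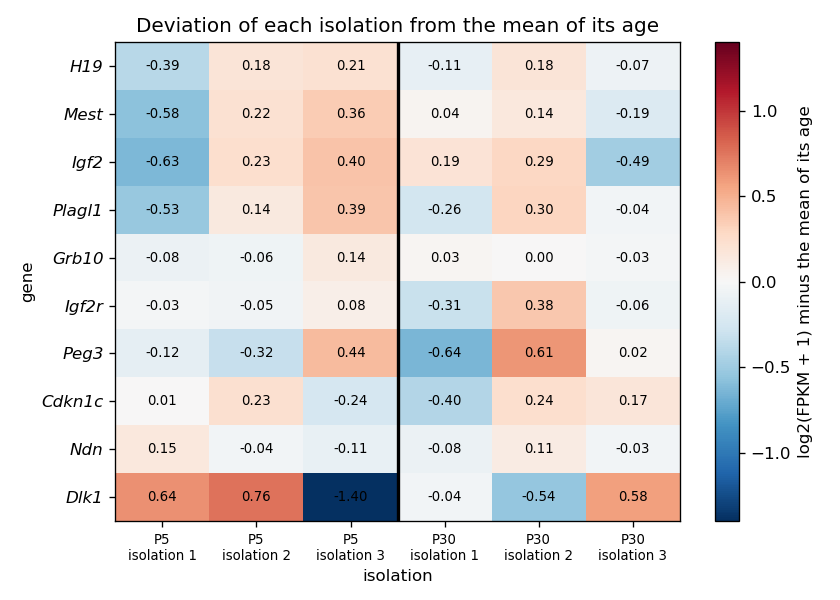
Log2(FPKM + 1) of each library minus the mean of its age, for the 10 genes (rows) in the 6 libraries (columns), with red above and blue below the mean. P5 replicate 1 was furthest below the mean for H19 (-0.39), Mest (-0.58), Igf2 (-0.63) and Plagl1 (-0.53). It was above the mean for Dlk1 (0.64), Ndn (0.15) and Cdkn1c (0.01). Dlk1 had its lowest value (-1.40) in P5 replicate 3.

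Genes were ranked by how much their profiles were like that of Igf2. Likeness was the root mean square difference between log2(FPKM + 1) profiles over the 6 libraries, each centred on its mean, over 12480 other genes. The 5 nearest were Brip1, a helicase of DNA repair (0.171), Gsg2, which encodes the mitotic kinase haspin (0.210), Gen1, a nuclease that resolves recombination intermediates (0.215), Fbxo5, an inhibitor of the anaphase-promoting complex (0.221), and Foxm1, a transcription factor of the G2 and M phases (0.222). Fbxo5 had 41.6, 75.2 and 85.6 FPKM at P5 and 11.1, 13.6 and 5.78 at P30. Brip1 had 9.55, 13.7 and 19.1 FPKM at P5 and was at no more than 0.88 at P30, where Igf2 kept a mean of 115. Gsg2 and Gen1 were also low at P30, with means of 1.23 and 1.26 FPKM. The pseudocount of 1 understates the change of such low genes, and the ranking was not repeated with another pseudocount. Among the other members, Mest was nearest to Igf2 (rank 58, difference 0.413), followed by Plagl1 (rank 257), Grb10 (rank 374), Igf2r (rank 566), H19 (rank 1228) and Peg3 (rank 1244). Cdkn1c, Ndn and Dlk1 stood at ranks 6350, 7717 and 12429. This likeness describes 6 libraries in 2 age clusters and is not a test.

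Of 52 other imprinted genes listed from general knowledge, 32 passed the filter on low values. Among these, 3 were called higher at P5, 6 higher at P30 and 23 were not called, with a median log2 fold change of 0.16. Against 5.82% and 5.89% of all genes tested, the calls went in both directions. Among the called genes, the largest falls were those of Peg10, Ppp1r9a and Peg12. Peg10, a retrotransposon-derived gene needed for the placenta, had 222, 277 and 287 FPKM at P5 and 21.5, 31.6 and 23.8 at P30 (log2 change -3.32 with SE 0.17, limma adjusted p = 8.6e-05), 10.2 times lower. Its neighbour Ppp1r9a, which encodes the actin-binding protein neurabin-1, had 69.4, 68.3 and 68.0 FPKM at P5 and 18.0, 18.7 and 16.3 at P30 (log2 change -1.90 with SE 0.13, limma adjusted p = 0.000168). Peg12 had 18.96, 21.6 and 23.7 FPKM at P5 and 9.54, 5.84 and 9.14 at P30 (log2 fold change -1.31, limma adjusted p = 0.00643), and its call was lost in 7 of 15 alternatives, among them the fits without P5 replicate 1, 2 or 3, at an adjusted p of at most 0.0384.

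Among the genes of this list that were called, the largest rises were those of Nap1l5, Zrsr1 and Meg3. Nap1l5 had 2.18, 0.73 and 0 FPKM at P5 and 24.5, 27.5 and 7.72 at P30 (log2 change 3.39 with SE 0.62, limma adjusted p = 0.00567). Its P30 replicate 3 was well below the others, and the call was lost without P5 replicate 2, P5 replicate 3, P30 replicate 1 or P30 replicate 2, and with a pseudocount of 0.1, at an adjusted p of at most 0.0243. With P5 values near 0, its log2 change was 1.96 with a pseudocount of 5 and 4.93 with 0.1. Zrsr1, a gene related to the splicing factor U2AF, had 22.7, 19.1 and 16.9 FPKM at P5 and 68.8, 81.9 and 73.8 at P30 (log2 change 1.89 with SE 0.16, limma adjusted p = 0.000284). Of the 20 imprinted genes that were not tested, 9 were listed at 0 in all 6 libraries.

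**Figure D5:**
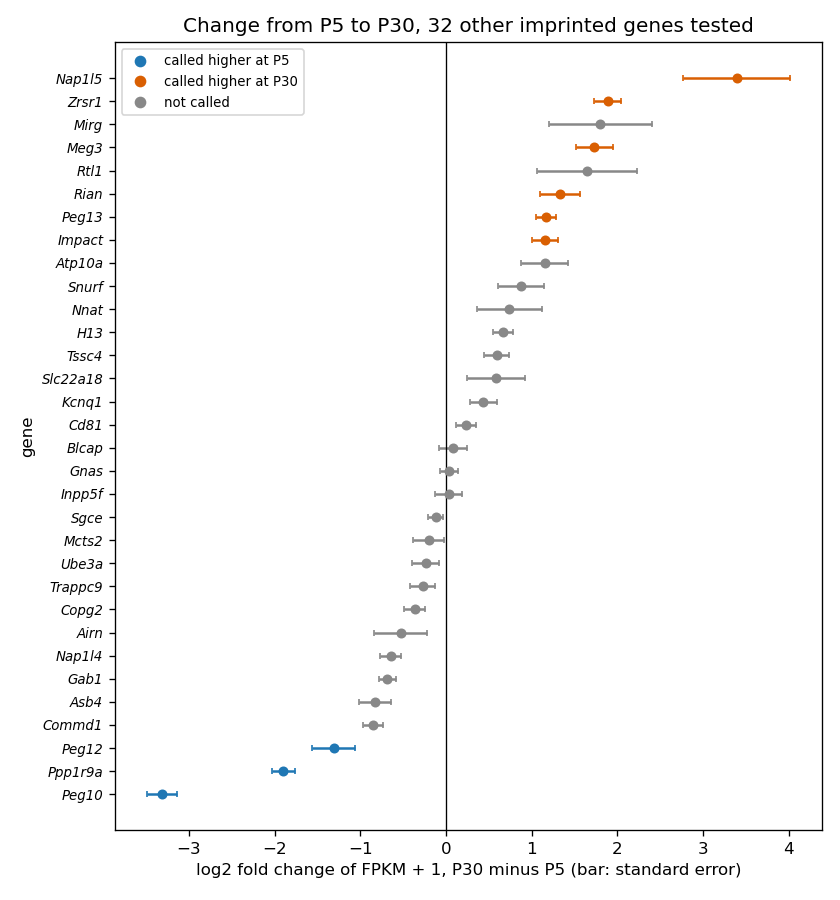
Log2 fold change of FPKM + 1, P30 minus P5, with the standard error from limma, for the 32 other imprinted genes tested, in blue where called higher at P5, in orange where called higher at P30 and in grey where not called. The values run from -3.32 for Peg10 to 3.39 for Nap1l5 and lie on both sides of 0.

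Around Igf2 and Igf2r, 16 other genes of the IGF axis (IGF1, its receptors, substrates, binding proteins and the Igf2 mRNA-binding proteins) were listed from general knowledge, and 13 were tested. Of these, 1 was called higher at P5 and 3 higher at P30, against 5.82% and 5.89% of all genes tested. Igf2bp3, which encodes a fetal protein that binds Igf2 mRNA, had 34.8, 42.7 and 46.0 FPKM at P5 and 2.41, 1.02 and 0.63 at P30 (log2 change -4.23 with SE 0.34, limma adjusted p = 0.000265), 30.4 times lower. The P30 values are low, and without P30 replicate 1 the means were 49.9 times apart, while the log2 change was -2.86 with a pseudocount of 5 and -5.01 with 0.1. Like H19, Igf2, Mest, Plagl1 and Grb10, Igf2bp3 was lowest among the P5 libraries in replicate 1 and highest in replicate 3. Replicate 1 was the lowest P5 library for 31.9% of all genes tested, and replicate 3 the highest for 32.9%. Insr, the insulin receptor, had 120, 98.8 and 88.3 FPKM at P5 and 363, 227 and 245 at P30 (log2 change 1.42 with SE 0.20, limma adjusted p = 0.00195). Irs2, an adaptor of the insulin and IGF1 receptors, had 8.64, 3.57 and 5.36 FPKM at P5 and 43.7, 149 and 44.2 at P30 (log2 change 3.36 with SE 0.51, limma adjusted p = 0.00261). Igfbp7, a secreted protein of vessel walls, had 4000.5, 4012 and 3072 FPKM at P5 and 6861, 8130.2 and 10266.5 at P30 (log2 change 1.18 with SE 0.19, limma adjusted p = 0.00308). The calls of Insr, Irs2 and Igfbp7 were lost without P5 replicate 2 or P5 replicate 3, at adjusted p values of at most 0.0131, 0.0162 and 0.0158. Igfbp7 lost its call also without P5 replicate 1, with a replicate block, and with quantile normalization, which lowered its log2 fold change to 0.42 (limma adjusted p = 0.215). Igf1 and Igf1r, the other growth factor of the axis and the receptor of both, were not called and are named after their values had been seen. Igf1 had 146, 105 and 104 FPKM at P5 and 101, 174 and 65.9 at P30 (log2 change -0.15, 95% confidence interval -0.92 to 0.62, limma adjusted p = 0.742). Igf1r had 46.0, 39.0 and 39.0 FPKM at P5 and 27.0, 45.6 and 43.3 at P30 (log2 change -0.13, 95% confidence interval -0.63 to 0.38, limma adjusted p = 0.667). The ages overlapped in both, and the sign of each difference turned when 1 library was left out.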

How the data were processed

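The deposited values are FPKM, 1 per gene symbol and library, which the authors made with Cufflinks (GC and upper quartile normalization) after TopHat alignment against mm9. CASAVA 1.8.2 and FastQC are named in the submitters' processing notes. The other versions and the gene annotation are not given in the sources used here. FPKM files hold no counts, so library depth is unknown and counting error cannot be stated. The read counts behind the DESeq2 analysis of the study were not used here. From the deposited FPKM, log2(FPKM + 1) was tested with limma 3.58.1 in R 4.3.3 (eBayes with a trend, no block). Genes whose mean FPKM stayed under 5 at both ages were left out. A pseudocount of 1 understates the change of low genes. Fold changes given as times are ratios of mean FPKM. Ratios of 2 genes were compared with exact permutation tests in scipy 1.17.1. Simulated data were used to test the limma step. Isolations are separate pools of animals. The numbers of the replicates are not stated to pair the libraries and were not used as pairs in the main fit.

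Positions are those of GENCODE for mm9, matched by symbol. RefSeq sequences are on GRCm38.p6, and no coordinates were carried between the builds. The members, the lists and the tests were chosen with earlier results of these data known. All members were named. Of the other lists, the called genes were named, or the 3 largest changes in each direction where more than 6 were called, with genes of the members' loci and the 5 genes nearest to Igf2. Igf1 and Igf1r were named after their values had been seen, and the GGGCGG motif was added after the windows had been read. Alternatives were other pseudocounts and minimum FPKM values, no trend, quantile normalization, equal medians, a replicate block, and each library left out in turn. Some marker genes are not reported here and were left out of the marker sums.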

Additional observations from a re-analysis of the deposited data

How the results depend on the processing

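Over 15 alternatives, 145 of the 150 recalculated member results kept their direction and their side of the limits. The calls of H19, Igf2, Mest, Grb10 and Dlk1 held in all 15. Plagl1 and Igf2r lost theirs without P5 replicate 2 or 3, so the members called higher at P5 numbered between 4 and 6 when 1 library was left out, and the members called higher at P30 numbered 1 throughout. With 1 library left out, the log2 fold change of Cdkn1c, which was not called, lay between -0.24 and 0.0775 (0.0775 without P30 replicate 1), that of Igf1 between -0.51 and 0.19 (0.00902 without P5 replicate 1, 0.19 without P30 replicate 3) and that of Igf1r between -0.26 and 0.11 (0.11 without P30 replicate 1). With 1 library left out, the genes called higher at P30 numbered between 396 and 849 and those called higher at P5 between 291 and 754, in place of 735 and 726. The IGF axis genes called higher at P30 numbered between 0 and 4. In limma, 0 were called without P5 replicate 2 and without P5 replicate 3, where 6 were higher at P30 with an unadjusted p under 0.05. The share of all genes at that unadjusted limit was not worked out, so the 6 have no background here. With a replicate block, limma called 524 genes higher at P5 and 585 higher at P30, and the members called numbered 6 and 1 as before. The pairing by number was not borne out, with correlations of -0.0905 to -0.0305 between the deviations of same-numbered libraries over the genes tested. Depth is unknown, and 3 libraries per age cannot give a permutation p below 0.1.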

Other observations

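The genes with profiles nearest to that of Dlk1 were looked up after its rise had been seen. That all were higher at P30 than at P5 follows from choosing them by this profile. By the root mean square difference of centred log2(FPKM + 1) over the 6 libraries they were Gm694 (0.374), Rasgrf2 (0.534), Aqp1 (0.638), Car4 (0.640) and Dbp (0.666). Aqp1, a water channel, had 504, 424 and 235 FPKM at P5 and 4245, 4246 and 3956 at P30. Dbp, a transcription factor of the circadian clock output, had 22.7, 17.1 and 11.99 FPKM at P5 and 166, 140.6 and 248 at P30. Car4, a carbonic anhydrase of capillary walls, had 0.90, 0 and 0 FPKM at P5 and 18.2, 11.4 and 26.6 at P30. As with Dlk1, P30 replicate 2 was the lowest and P30 replicate 3 the highest of their age for Dbp and Car4. The P30 order differed for Gm694 (65.1, 52.3 and 62.0 FPKM), Rasgrf2 (59.9, 63.1 and 79.2) and Aqp1. Choosing genes by likeness to Dlk1 favours a shared order. This is a description of 6 libraries, with no test.

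Of the 6 tested genes of the Kcnq1 domain, which holds Cdkn1c, 0 reached both limits in limma, and 3 had an unadjusted p under 0.05. Over all genes tested, 5.82% were called higher at P5 and 5.89% higher at P30 by both limits. The share of all genes with an unadjusted p under 0.05 was not worked out, so the 3 have no background here. Of the 3, Nap1l4 fell, while Tssc4 was higher at P30 (log2 change 0.59, limma adjusted p = 0.0155). So was Kcnq1 by its mean, with overlapping ages (log2 change 0.44, limma adjusted p = 0.0687). Nap1l4, which encodes a histone chaperone, had 330, 334 and 343 FPKM at P5 and 188, 252 and 206 at P30 (log2 change -0.65 with SE 0.12, limma adjusted p = 0.00631), short of a 2-fold difference. Of the 5 tested genes of the domain of Ndn, Peg12 alone was called, higher at P5, and its call was lost in 7 of 15 alternatives. Atp10a (log2 change 1.15, limma adjusted p = 0.0148) and Snurf (log2 change 0.87, limma adjusted p = 0.0354) were not called. Both lay higher in every P30 library than in every P5 library, as did 22.0% of all genes tested.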
